A study of Homo sapiens with 4 samples.

Results

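IFIT1, IFIT2, IFIT3, IFIT5, IFI44, IFI44L, IFI6, IFI27 and IFI35 are 9 antiviral effector genes that type I interferon switches on. Their signals were followed here in A549 cells given a siRNA against β-arrestin-1 or a control siRNA. A549 is an epithelial cell line from a human lung adenocarcinoma. The 9 genes, of 19775 named on the arrays, were chosen by family name with their differences between ARRB1 siRNA and control siRNA in these arrays already known, so those differences are given as a description and carry no test. Every probe set that the platform annotation assigns to these symbols was taken, 13 in all, and the brightest probe set stands for each gene. All 9 genes were expressed, which here means a mean log2 signal at or above the median over all probe sets (a signal of 66.3).

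There were 4 groups with 1 Affymetrix Human Genome U133 Plus 2.0 array each: serum starved cells with control siRNA, the same with nicotine, serum starved cells with ARRB1 siRNA, and these with nicotine. All cells were transfected, the controls with a non-targeting siRNA and the others with a siRNA against β-arrestin-1 (gene ARRB1), and all were serum starved for 36 h. No array is of untransfected cells, so depletion and any other difference between the 2 siRNAs cannot be told apart. The nicotine groups then received 1 µM nicotine for 24 h, while the labels call the starved groups untreated and do not say how long those cells were kept before RNA was taken. The depletion is transient and partial, and each group is 1 RNA preparation of 1 cell line, so no difference below has a replicate check and no p-value is given.

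Interferons bind cell surface receptors that act through the JAK kinases, and a complex that includes IRF9 binds a promoter element called the interferon-stimulated response element, or ISRE. IFIT proteins are built of tetratricopeptide repeats and bind foreign RNA, which blocks its translation. IFI44 and IFI44L are related proteins of the cytoplasm, IFI6 and IFI27 are small hydrophobic proteins of internal membranes, and IFI35 is a leucine zipper protein that pairs with NMI. In epithelial cells such as those of the lung these genes are usually low and become abundant after viral infection, foreign RNA in the cell, or added interferon.

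The labels fit the RNA of the targeted gene on most probe sets. The brightest ARRB1 probe set, 43511_s_at, had signals of 352 and 331 with control siRNA and 191 and 224 with ARRB1 siRNA, in the order starved, nicotine that is used throughout, and 6 of 7 ARRB1 probe sets were lower in each pair. Array medians ran from 68.6 to 73.3. All 8 epithelial and A549 markers listed were expressed, with summed signals of 105022 to 119194 with control siRNA and 119838 to 142700 with ARRB1 siRNA. The brightest markers carry these sums, and 6 of the 8 were higher with ARRB1 siRNA in both pairs while CDH1 and EPCAM were lower, CDH1 with 5218 and 4812 against 3201 and 2827. All 5 measured leukocyte markers lay below the limit for expression, among them PTPRC and CD3E, with sums of 122 to 163 and 147 to 178 in the same order. Fibroblast markers, with 1 of 4 expressed, summed to 539 to 560 and 640 to 681, and endothelial markers, with 1 of 3 expressed, to 188 to 199 and 219 to 261. The part of other cell types in the results was not tested, and in RNA from whole cultures, fewer cells that express a gene and less RNA per cell cannot be told apart.

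The promoters of these genes show what most of them share apart from their signals. The ISRE core GAAANNGAAA was searched on both strands of 300-base windows of RefSeq promoters, 250 bases before and 50 after each annotated start site (GRCh38.p14). Of the 9 genes, 8 (all but IFIT2) had a window in the table, 7 of these 8 held the core, and 6 of them held it at least 2 times in 1 window. Among all 27305 genes with a window, 4.38% held the core and 0.311% held it at least 2 times in 1 window, and of all 35116 windows 3.57% held it. The core is not particular to these 9, since 26 of 38 other expressed interferon-stimulated effector genes with a window held it. IFI35 was the gene without a match in its window, which says only that these letters are not there. The stretches below, from the first window of each gene in genome order, run 5′ to 3′ on the gene's strand with the matches in capitals (TTTCNNTTTC is the same core on the other strand), and no capital overlaps another match.
IFIT1, chr10:89392492-89392544, plus strand: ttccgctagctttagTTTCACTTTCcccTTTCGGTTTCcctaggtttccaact
IFIT3, chr10:89327826-89327899, plus strand: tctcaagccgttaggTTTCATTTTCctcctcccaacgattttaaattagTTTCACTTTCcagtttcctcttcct
IFIT5, chr10:89414508-89414588, plus strand: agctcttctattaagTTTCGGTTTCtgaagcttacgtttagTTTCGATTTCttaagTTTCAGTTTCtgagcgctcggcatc
IFI44, chr1:78649756-78649795, plus strand: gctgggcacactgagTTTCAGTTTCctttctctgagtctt
IFI44L, chr1:78620269-78620399, plus strand: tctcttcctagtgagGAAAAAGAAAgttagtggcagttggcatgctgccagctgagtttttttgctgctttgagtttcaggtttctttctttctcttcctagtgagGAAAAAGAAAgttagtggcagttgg
IFI6, chr1:27672261-27672363, minus strand: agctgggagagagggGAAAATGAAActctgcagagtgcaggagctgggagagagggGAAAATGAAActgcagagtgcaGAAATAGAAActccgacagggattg
IFI27, chr14:94110613-94110665, plus strand: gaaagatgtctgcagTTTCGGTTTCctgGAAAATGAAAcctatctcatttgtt

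In IFIT1 the matches began 116 and 103 bases before the start site, with 3 bases between them. In IFI27 they began 108 and 95 bases before it, also 3 bases apart but on opposite strands. The IFIT5 matches began 45, 19 and 4 bases before the start site, and the single IFI44 match of the first window began 18 bases before it. A match is a description of the letters, not a binding site.

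**Figure D1:**
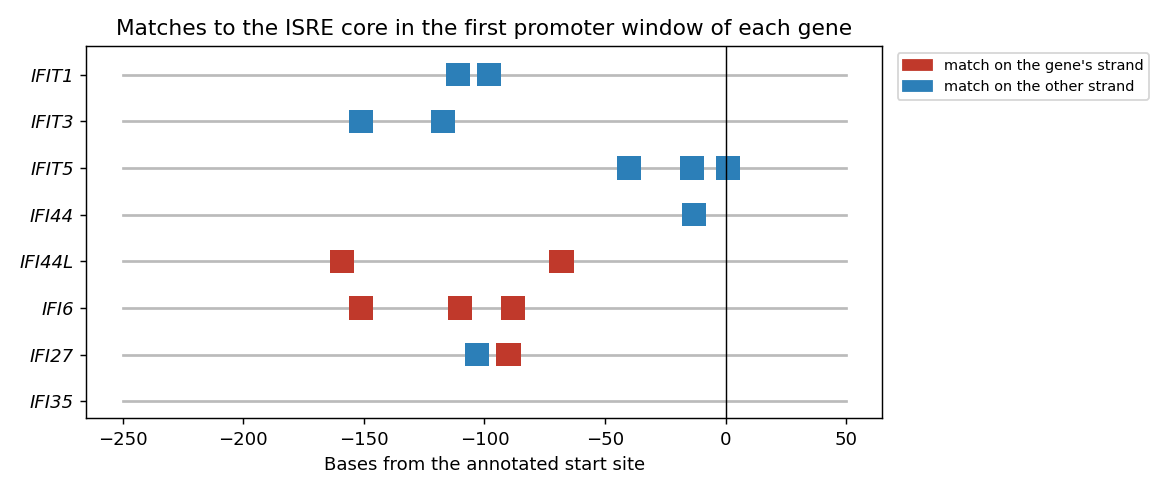
Position of each match to the ISRE core (horizontal axis, bases from the annotated start site) in the first promoter window of 8 genes, red for a match on the gene's own strand and blue for the other strand. The 7 genes with a match carry 1 to 3 of them, and IFI35 carries none.

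With ARRB1 siRNA the signals of all 9 genes were lower than with control siRNA, both in serum starved and in nicotine treated cells. In the starved pair 7 of the 9 genes were at least 2-fold lower, where 0.783% of the 12521 expressed genes were, and in the nicotine pair 8 of 9 were, where 1.4% of the expressed genes were. None was higher. The median log2 difference of the 9 genes was -1.66 in the starved pair and -2.08 in the nicotine pair, beside medians of 0.02 in both pairs over all expressed genes. These pairs share no array. Both ARRB1 siRNA arrays lay below both control siRNA arrays for 9 of 9 genes and 22.6% of expressed genes, and the 7 genes at least 2-fold lower in both pairs stand beside 0.327% of expressed genes. The genes were selected on these differences, so nothing is read from the counts.

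**Figure D2:**
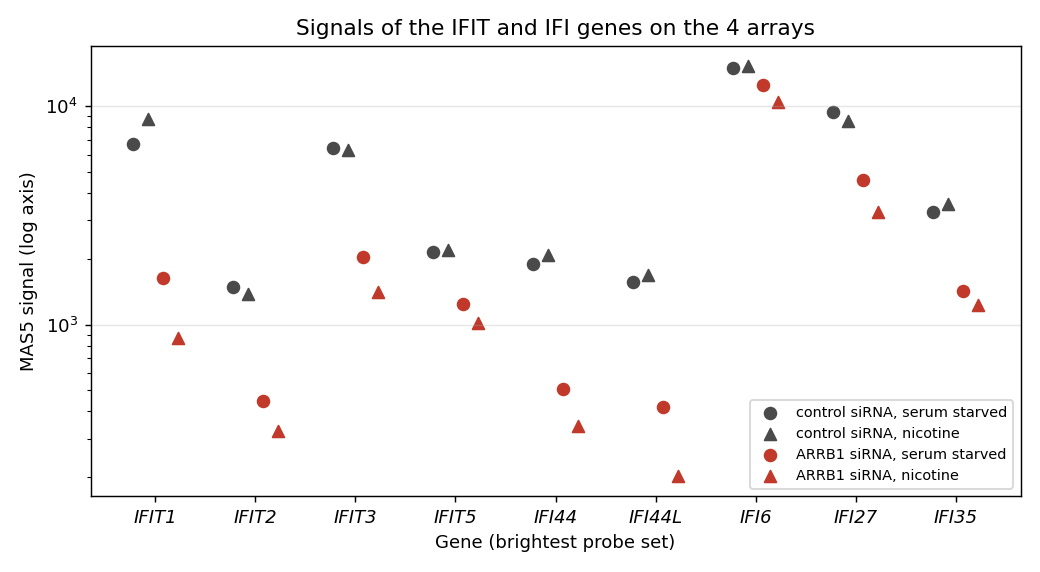
MAS5 signal (vertical log axis) of the brightest probe set of each gene on the 4 arrays, 1 point per array, grey for control siRNA and red for ARRB1 siRNA, circles for serum starved and triangles for nicotine. For every gene both red points lie below both grey points, from IFIT1 (865 against 8735 with nicotine) to IFI6 (10467 against 15224).

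The 4 IFIT genes lie in a cluster on chromosome 10 and were all lower with ARRB1 siRNA. IFIT1, which recognises viral RNA by its unusual 5′ end, had signals of 6694 (starved) and 8735 (nicotine) with control siRNA, against 1627 and 865 with ARRB1 siRNA. Both ARRB1 siRNA arrays lay below both control siRNA arrays, as they did for 22.6% of expressed genes. The log2 differences of IFIT1, -2.04 and -3.34, were the 9th and 3rd lowest of all expressed genes in the starved and nicotine pairs. The ARRB1 siRNA signals were 24.3% and 9.91% of the control siRNA signals.

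IFIT3, which binds IFIT1 and stabilises it, had 6421 and 6278 with control siRNA against 2037 and 1413 with ARRB1 siRNA, log2 differences of -1.66 and -2.15. IFIT2, which also assembles with these proteins, had 1489 and 1374 against 448 and 326, log2 differences of -1.73 and -2.08. The control siRNA signals were 1.02-fold apart for IFIT3 and 1.08-fold apart for IFIT2, and those with ARRB1 siRNA were 3.15-fold to 4.44-fold lower. IFIT5, which binds RNA on its own, had the smallest differences of the IFIT genes by brightest probe set, with 2148 and 2194 against 1246 and 1016. It was 1.72-fold lower in the starved pair, under the 2-fold limit, and 2.16-fold lower in the nicotine pair.

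IFI44 and IFI44L lie side by side on chromosome 1 and had nearly equal log2 differences in serum starved cells. IFI44 had 1896 and 2093 with control siRNA against 508 and 341 with ARRB1 siRNA, log2 differences of -1.90 and -2.62. IFI44L had 1568 and 1692 against 421 and 203, log2 differences of -1.90 and -3.06. In nicotine treated cells IFI44L was thus 8.34-fold lower and IFI44 was 6.14-fold lower.

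Both genes for small membrane proteins had log2 differences closer to 0 than the medians of the 9 genes, as did IFIT5 and IFI35. IFI27 had 9431 and 8594 with control siRNA against 4590 and 3289 with ARRB1 siRNA, log2 differences of -1.04 and -1.39. IFI6 had 15039 and 15224 against 12502 and 10467. It kept 83.1% and 68.8% of its control siRNA signal and was the gene under the 2-fold limit in both pairs. Its promoter window holds 3 matches to the ISRE core. IFI35, with no match in its window, had 3279 and 3565 against 1419 and 1232, log2 differences of -1.21 and -1.53.

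The other probe sets of these genes gave the same direction. No probe set named a member along with another gene. IFIT2, IFIT3, IFIT5 and IFI44 had 2 probe sets each. On all 13 probe sets both ARRB1 siRNA arrays lay below both control siRNA arrays, as they did for 22.6% of expressed genes. The 13 probe sets read the same selected genes in the same RNA, so they are no independent check. The second IFIT3 probe set, 204747_at, had 1652 and 1880 with control siRNA against 475 and 444 with ARRB1 siRNA, close in log2 difference to the first (-1.80 and -2.08). The second IFIT5 probe set, 203596_s_at, had 1436 and 1310 against 570 and 478, at least 2-fold lower in both pairs where the brightest was so in 1.

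The dimmer probe sets of IFIT2 and IFI44 were also lower, with a wider spread. For IFIT2, 217502_at had 159 and 197 with control siRNA against 107 and 58.2, log2 differences of -0.56 and -1.76. For IFI44, 214059_at, below the limit for expression, had 82.0 and 71.8 against 36.2 and 11.7. As a measure of spread, log2 differences of the 500 probe sets closest in mean signal had SDs of 0.16 to 0.33 in the starved pair and 0.18 to 0.31 in the nicotine pair for the brightest probe sets. Those SDs were 0.51 and 0.53 for 217502_at, and 0.96 and 0.98 for 214059_at. The differences of all 9 brightest probe sets were larger than this SD in both pairs, where 5.26% of expressed genes were lower by more than their SD in both. It spans genes that differ between the arrays as well as noise, and is no replicate error.

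**Figure D3:**
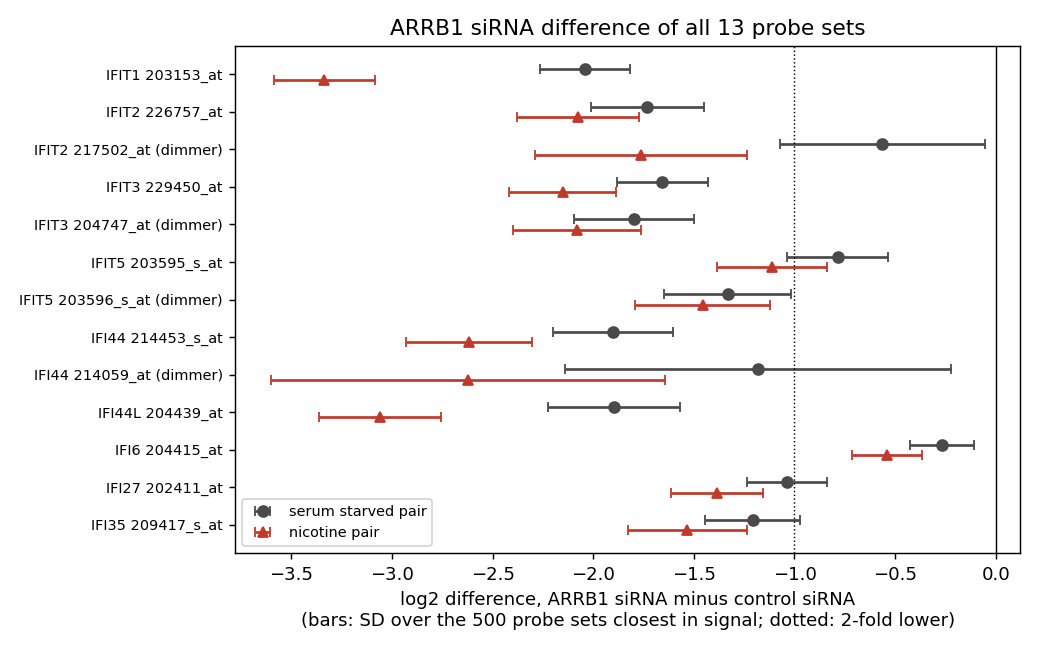
Log2 difference between ARRB1 siRNA and control siRNA (horizontal axis) for each of the 13 probe sets, grey circles for the starved pair and red triangles for the nicotine pair, with bars of 1 SD over the 500 probe sets closest in signal. All points lie left of 0, and the widest bars belong to the dim IFI44 probe set 214059_at.

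In control siRNA cells most of these genes had signals with nicotine close to their serum starved signals, whereas all 9 were lower with nicotine after ARRB1 siRNA. The labels do not say how long the starved cells were kept, and the part of culture time in the nicotine differences was not tested. With control siRNA, 6 genes were higher and 3 were lower with nicotine, where 44.4% of expressed genes were higher and 55.6% lower by any amount. Median centring of the arrays turned this to 4 higher and 5 lower, beside 26.8% of expressed genes higher. The median log2 difference of the 9 was 0.03 (-0.06 centred), beside -0.02 over all expressed genes (-0.12 centred), with a range of -0.13 to 0.38. None reached 2-fold in either direction. Of 12521 expressed genes, 42 (0.335%) were at least 2-fold lower and 90 were at least 2-fold higher. The difference was larger than the SD at similar signal for 1 gene that was higher, IFIT1 (0.38), and 1 that was lower, IFI27 (-0.13). Of expressed genes 13.2% were lower by more than their SD. The share that was higher by more than it is not given, so nothing is read from these counts. In ARRB1 siRNA cells all 9 were lower with nicotine, as were 51.9% of expressed genes by any amount. The median log2 difference was -0.48 there, beside -0.01 over all expressed genes.

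IFI44L was the 1 gene at least 2-fold lower with nicotine in ARRB1 siRNA cells (log2 difference -1.05, and less than 2-fold with centred arrays), where 0.958% of expressed genes were. IFIT1 followed at -0.91 and IFI44 at -0.57, while IFI6 and IFI35 had the smallest differences, -0.26 and -0.20. The difference was larger than the SD at similar signal for 8 of 9 genes, the exception being IFI35, where 14.7% of expressed genes were lower by more than their SD. The ARRB1 siRNA nicotine array was the lowest of the 4 and the serum starved ARRB1 siRNA array the next lowest for 9 of 9 genes, an order that 13.2% of expressed genes had.

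Over the 9 genes, the nicotine difference in ARRB1 siRNA cells minus that in control siRNA cells had a median log2 value of -0.35. Over all expressed genes the median was 0.01. This value was largest in size for IFIT1 and for IFI44L (-1.16). It equals the siRNA difference in the nicotine pair minus that in the starved pair. The genes were chosen with those siRNA differences known, so nothing is read from it. The nicotine comparisons share no array with each other, but each shares its arrays with the siRNA comparisons, so the lower nicotine values in ARRB1 siRNA cells and the larger siRNA differences with nicotine are the same signals read in another direction.

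**Figure D4:**
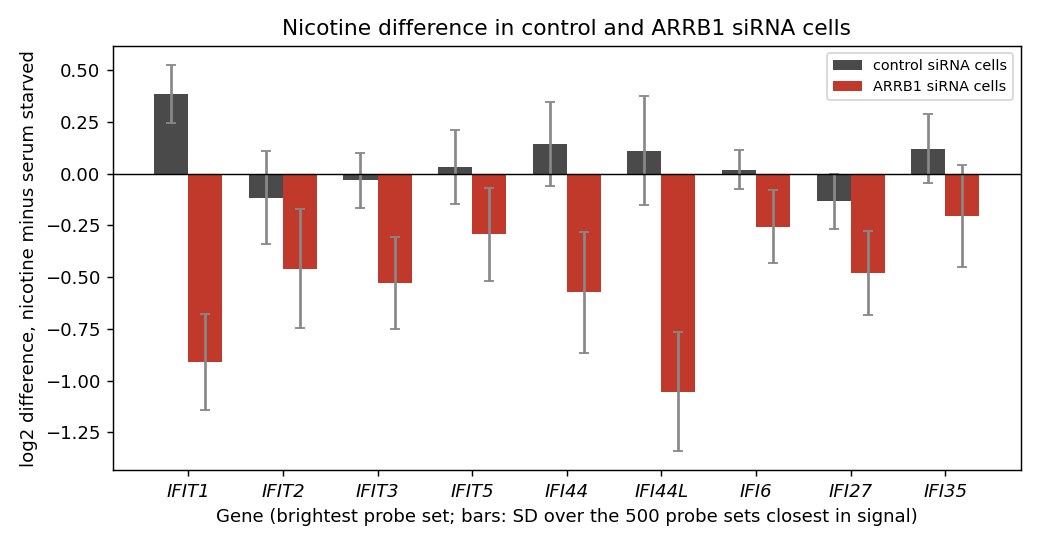
Log2 difference between nicotine treated and serum starved cells (vertical axis, bars from 0) for the brightest probe set of each gene, grey in control siRNA and red in ARRB1 siRNA cells, with whiskers of 1 SD over the 500 probe sets closest in signal. Grey bars run from -0.13 to 0.38 and red bars from -1.05 to -0.20.

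Other genes of the interferon pathway were read from lists that hold none of the 9. The lists were also chosen with earlier results of these data known, so their counts are a description. Of 48 expressed interferon-stimulated effector genes, 48 were lower with ARRB1 siRNA in the starved pair and 47 in the nicotine pair. Over all expressed genes 47.6% and 47.8% were lower. The medians of the effectors were -0.77 and -1.08. In these pairs 14 and 27 effectors were at least 2-fold lower, where 0.783% and 1.4% of expressed genes were, and no effector was higher by that limit. XAF1, a proapoptotic zinc finger protein, had 1162 and 1278 with control siRNA against 187 and 87.0 with ARRB1 siRNA. OAS2, which makes the oligoadenylate activator of RNase L, had 936 and 1217 against 123 and 118. MX1, an antiviral GTPase, had log2 differences of -2.18 and -2.94, and CMPK2, a mitochondrial nucleotide kinase, of -2.06 and -2.79.

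The upstream genes differed less as a list. Of 14 expressed receptor and signal transduction genes, 1 and 2 were at least 2-fold lower in the starved and nicotine pairs, with list medians of -0.06 and -0.10. IRF7, the transcription factor that amplifies interferon production, had 1569 and 1664 with control siRNA against 615 and 528, and IRF9, the DNA-binding part of the ISRE complex, had 2198 and 2307 against 1252 and 1117. IL10RB, a receptor chain for type III interferons, had log2 differences of -0.23 and -0.65, and IRF2 of -0.43 and -0.31. Of 18 interferon genes measured, 2 were expressed, IFNE and IFNA17. IFNE had 92.2 and 139 with control siRNA against 162 and 208 with ARRB1 siRNA. IFNA17, whose probe set may also bind its close relatives among the interferon alpha genes, had 88.5 and 119 against 30.3 and 170, lower in the starved pair and higher in the nicotine pair.

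IFI27L1 and IFI27L2, which encode relatives of IFI27, differed by less than 2-fold in every comparison. IFI27L2 had 418 and 446 with control siRNA against 617 and 526 with ARRB1 siRNA, and IFI27L1 had 558 and 697 against 733 and 603.

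**Figure D5:**
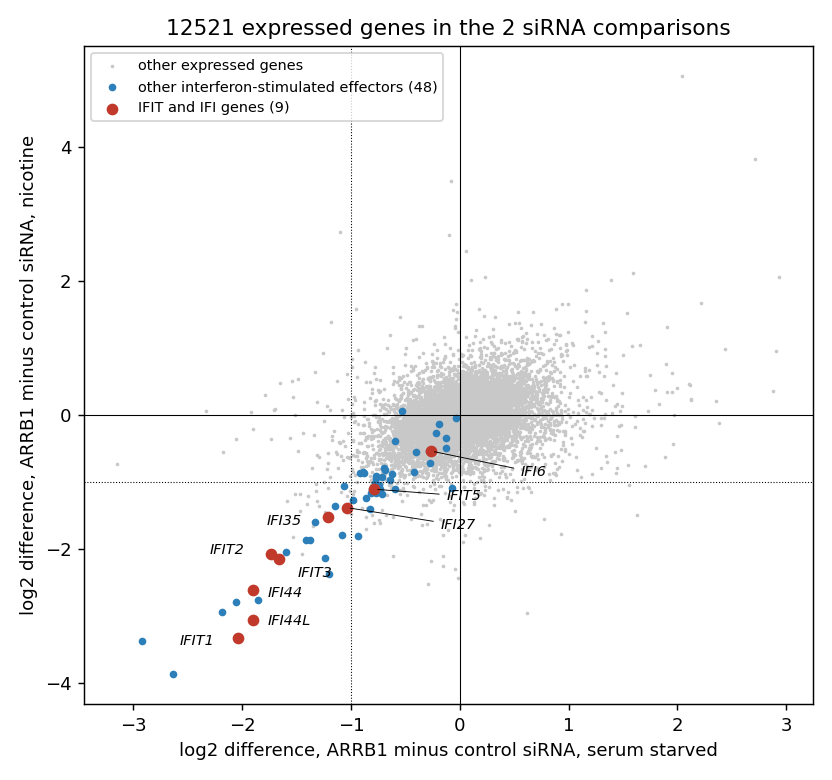
Log2 difference between ARRB1 siRNA and control siRNA in the starved pair (horizontal axis) and in the nicotine pair (vertical axis) for 12521 expressed genes, with the 9 IFIT and IFI genes in red and 48 other interferon-stimulated effectors in blue. Dotted lines mark 2-fold lower signals, and 7 of the red points lie beyond both.

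The genes whose pattern over the 4 arrays lay closest to that of the 9 were found by Euclidean distance between log2 signals, each gene centred on its own mean. The mean profile of the 9 stood at 0.81 and 0.87 with control siRNA and -0.58 and -1.11 with ARRB1 siRNA. Of 12512 other expressed genes the nearest was DDX60, a helicase-like antiviral protein, with 1589 and 1720 against 582 and 406 (distance 0.09). It was followed by OASL, IFIH1, PARP9, IRF7, ISG15, MX2, IFITM1, SAMD9L and RSAD2, the last at a distance of 0.41, beside a median of 1.76 over all these genes. Of these 10, 9 were on the pathway lists, which hold 48 expressed effectors, 14 expressed signalling genes, 2 expressed ligands and 2 expressed paralogs. The members and the lists were chosen with earlier results of these data known, so nothing is read from this count. The distance depends on the size of the differences as well as their direction, and 4 arrays give it little detail.

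Of the 41 expressed genes at least 2-fold lower in both siRNA pairs, 7 were from the 9, 15 were on the pathway lists and 19 were on neither. Among the 34 that were not members, 26 had a promoter window and 12 of these held the ISRE core, beside 3.94% of expressed genes with a window. The 34 include the 15 on the pathway lists, whose expressed effectors held the core in 26 of 38 genes with a window. Matches in the 19 on neither were not counted apart.

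The expressed genes around the IFIT cluster differed by less than 2-fold. The cluster spans 118952 bases, from IFIT2 to IFIT5 (chr10:89302046-89420997), and LIPA, a lysosomal lipase whose annotated span overlaps it, and PANK1, a pantothenate kinase, were the expressed neighbours within 200000 bases. LIPA had 5721 and 5696 with control siRNA against 5046 and 5934 with ARRB1 siRNA, and PANK1 had 1256 and 1082 against 818 and 1008. Their log2 differences were -0.18 and -0.62 in the starved pair, and 0.06 and -0.10 in the nicotine pair.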

How the data were processed

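The 4 U133 Plus 2.0 arrays of A549 RNA cover 2 siRNAs and 2 treatments with 1 array each. The deposited values are linear MAS5 signal intensities, made by the authors with GCOS 1.4 according to the submitters' processing notes, and the mean after trimming 2% at each end is 499.9 on each array. Detection calls were not used here. After removal of 62 control probe sets, 54613 remained, of which 41091 named 1 gene (1801 several, 11721 none) in the platform annotation, with symbols updated through RefSeq gene IDs. Log2 differences between arrays used no floor on the signal, and a 2-fold limit as in the labels. No test was made, since each group is 1 array, whose number limits precision. The SD over the 500 probe sets nearest in mean signal describes spread. Named genes were the 9 members, ARRB1, up to 4 expressed genes of each pathway list with the largest mean siRNA difference, and the 10 nearest profiles. LIPA and PANK1 lie outside this rule and came from position, PTPRC and CD3E stand for their marker list, and CDH1 and EPCAM were named after their values were seen. The members and lists were chosen with earlier results of these data known. Alternatives were array centring, quantile normalization, signal floors, 1.5-fold and 3-fold limits, other filters, the median over a gene's probe sets, and leaving out _x_at probe sets. Procedures were tested on simulated data. Python 3.11.15, numpy 2.4.6, pandas 2.3.3 and matplotlib 3.10.9 were used.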

Additional observations from a re-analysis of the deposited data

Results flagged for a closer look

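IFIT1 had nicotine differences of opposite sign in the 2 siRNA conditions, each larger than the SD over probe sets of similar signal. With nicotine, IFIT1 differed by 0.38 (log2) in control siRNA cells (SD 0.14) and -0.91 in ARRB1 siRNA cells (SD 0.23), and the latter minus the former was -1.30. The difference was not tested, since there is 1 array per condition.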

How the results depend on the processing

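The counts of genes at least 2-fold lower with ARRB1 siRNA were 7 and 8 in the starved and nicotine pairs, and centring, quantile normalization, both floors, leaving out _x_at probe sets, no filter and the filter at the 75th percentile gave the same counts. The 1.5-fold limit and the median over probe sets gave 8 in each pair, and the 3-fold limit gave 5 in each pair. Medians ran from -1.73 to -1.21 in the starved pair and from -2.08 to -1.92 in the nicotine pair, and the value of -1.21 came from taking the median over the probe sets of each gene. All 54 values of single genes kept their sign in each siRNA pair, as did 47 of 54 for nicotine in control siRNA cells and 54 of 54 in ARRB1 siRNA cells. The count of 1 gene at least 2-fold lower with nicotine in ARRB1 siRNA cells became 0 with centred arrays or the 3-fold limit, and 2 with the median over probe sets or the 1.5-fold limit. The dim second probe sets of IFIT2 and IFI44 have the widest spread at their signal.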
